A study of Mus musculus with 12 samples.

Results

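The Hox genes of the 4 mammalian clusters were taken from a table of gene expression in myoblasts and striated muscle of Lbr-knockout, Lmna-knockout and wild-type C57Bl/6 mice. Every row whose symbol was Hoxa, Hoxb, Hoxc or Hoxd followed by a number was kept, which gave 39 of the 22552 genes. There were 11 in HoxA on chromosome 6, 10 in HoxB on chromosome 11, 9 in HoxC on chromosome 15 and 9 in HoxD on chromosome 2. Lbr encodes the lamin B receptor and Lmna encodes lamins A and C. Both proteins of the inner side of the nuclear envelope are known for holding heterochromatin at the nuclear periphery.

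The 12 samples were RNA from 6 myoblast and 6 striated muscle preparations. Knockout and wild-type animals were littermates from matings of heterozygous parents. The myoblast groups were Lbr knockout (2 samples), the wild type of the Lbr litter (1 sample), Lmna knockout (2 samples) and the wild type of the Lmna litter (1 sample). The muscle groups were Lbr knockout, Lmna knockout and wild type, each of 2 samples. The labels did not give the deleted part of either gene, the age or sex of the animals, the muscle, or how the myoblasts were obtained and grown. Levels are in FPKM, the fragments of a transcript divided by its length in kilobases and by the size of the library, in 7 columns, 1 per group. A knockout or muscle wild-type column therefore stands for 2 samples with no spread of its own, and each wild-type myoblast column is 1 sample.

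Hox genes encode homeodomain transcription factors that give cells along the head-to-tail axis and along the limb their positional identity. Within a cluster the genes lie in the order of their paralogue numbers, and low-numbered genes are used further forward than high-numbered ones. Adult fibroblasts, muscle progenitors and other mesenchymal cells are known to keep much of the Hox pattern of the body region they came from, and Polycomb and Trithorax complexes are known to hold silent and active parts of a cluster in separate chromatin states.

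Lbr was listed at 7.71 FPKM in the Lbr-knockout myoblasts against 16.1 in their wild type, and at 1.87 FPKM in the Lbr-knockout muscle against 11.8 in wild-type muscle. Lmna was at 18.5 FPKM in the Lmna-knockout myoblasts against 147 in their wild type, and at 22.6 FPKM in the Lmna-knockout muscle against 59.5. Each target was thus lower in its own knockout, but not at 0. The spacing of low values placed the depth at 23.5 to 34.0 fragments for a 2 kb transcript at 1 FPKM in the myoblast columns and at 3.72 to 8.15 in the muscle columns. A muscle value near 1 FPKM thus rests on few fragments. The muscle columns carried fibre RNA, with Ckm at 4488 to 5120 FPKM. In the myoblast columns Myod1 was at 2.09 to 5.51 FPKM and Pax7 at 0.15 to 0.27 FPKM, both below their levels in muscle (16.4 to 18.1 and 1.28 to 2.10 FPKM). The fibroblast gene Col1a1 reached 1027 to 1151 FPKM in the myoblast columns, and the 4 macrophage markers summed to 24.4 to 94.7 FPKM. The fibroblast markers were split. Col1a1 and Pdgfra were higher in myoblasts than in muscle. Dcn (20.3 to 40.2 against 254 to 287 FPKM) and Lum (0.303 to 2.42 against 51.1 to 91.4 FPKM) were lower. The label myoblast is therefore only weakly borne out by these markers. In such bulk RNA, fewer cells of a type and less RNA per cell cannot be told apart.

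The Hox genes were expressed at low levels. Of the 39, 27 had a mean of at least 1 FPKM over the myoblast columns and 21 over the muscle columns. In total 33 reached 1 FPKM in at least 1 column and 13 did so in every column. The sum over all members was 136, 141, 164 and 136 FPKM in the myoblast columns, in the order Lbr knockout, Lbr-litter wild type, Lmna knockout and Lmna-litter wild type, an order kept for all myoblast values that follow. In the muscle columns, in the order Lbr knockout, Lmna knockout and wild type, which is also kept, the sum was 84.3, 83.7 and 78.9 FPKM. Myoblasts were above muscle in every column. The sum is 0.0352% to 0.0407% of all FPKM in myoblasts and 0.0161% to 0.0179% in muscle. The other 6 genes (Hoxa13, Hoxb1, Hoxb8, Hoxb13, Hoxd1 and Hoxd12) stayed below 1 FPKM throughout, with 0.796 FPKM as the highest value of any of them. Hoxb1, a hindbrain gene, was listed at 0 in all 7 columns.

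The gene with the highest mean FPKM in both tissues was Hoxc10, a gene of the lumbar region and hindlimb. It was at 18.3, 11.6, 27.1 and 24.7 FPKM in myoblasts and at 16.9, 18.6 and 18.1 FPKM in muscle. The muscle values lay inside the myoblast range. In the Lbr-litter wild type Hoxc8 (15.2 FPKM) and Hoxc6 (14.8 FPKM) were above it. Next in myoblasts came Hoxa10, a paralogue that patterns the same lumbar level (mean 13.4 FPKM over the 4 columns), and the thoracic gene Hoxc6 (mean 13.2 FPKM). Their column ranges, 10.3 to 17.5 and 9.56 to 15.3 FPKM, overlap with each other and with that of Hoxc10, so the order of the 3 is not resolved. In muscle the next were Hoxd8 and Hoxa10, with means of 8.94 and 7.55 FPKM over 3 columns, and ranges of 6.83 to 11.1 and 6.59 to 8.73 FPKM that overlap as well.

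**Figure D1:**
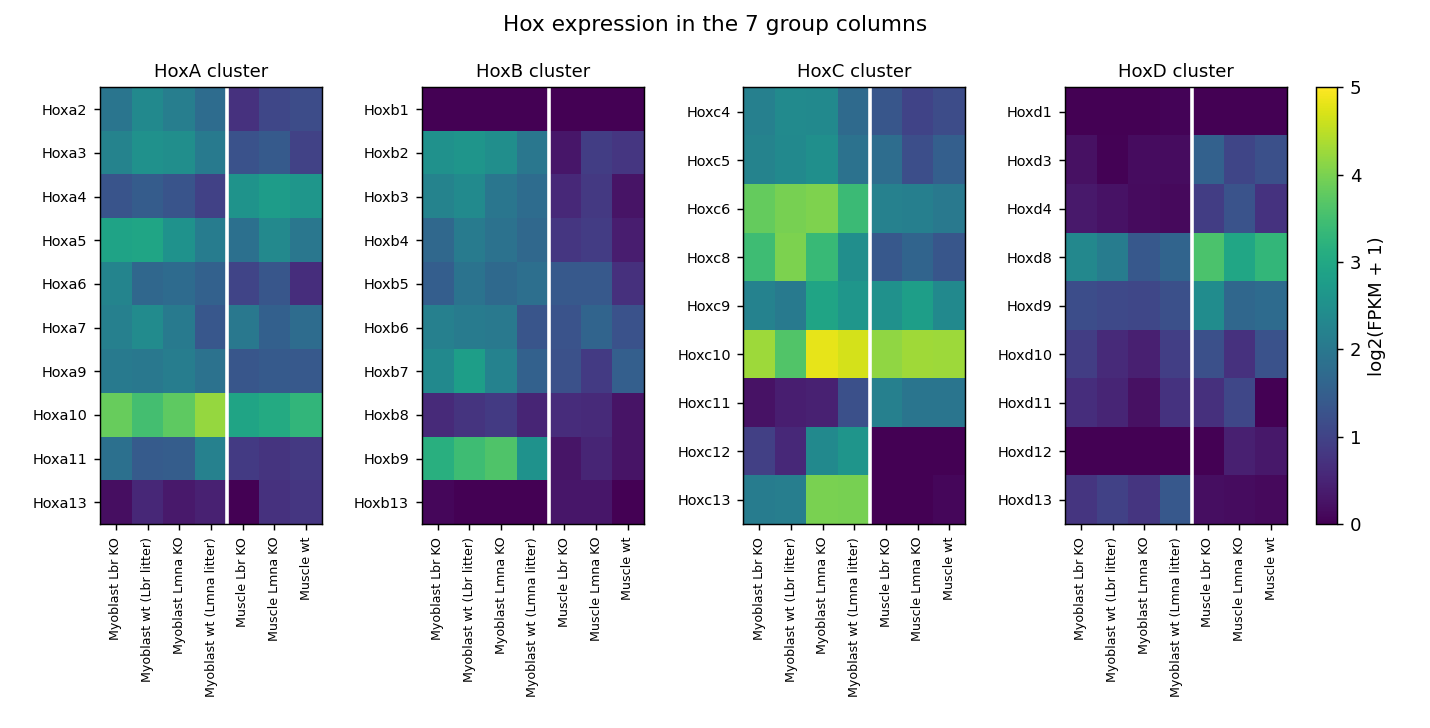
Heat map of log2(FPKM + 1) for the Hox genes (rows, by cluster and paralogue number) in the 7 group columns, with a white line between the 4 myoblast and 3 muscle columns. HoxB is bright in the myoblast columns and dark in muscle, Hoxd3, Hoxd4, Hoxd8 and Hoxd9 are brighter in muscle, and Hoxc10 is bright in every column.

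Cluster makeup differed by tissue. HoxB held 21.0%, 25.0%, 19.0% and 13.9% of the summed Hox FPKM in the myoblast columns and 8.18%, 9.76% and 7.00% in muscle. HoxD went the other way, with 5.80%, 4.65%, 2.51% and 4.96% in myoblasts and 24.1%, 16.3% and 19.0% in muscle. HoxC was the largest cluster in every column, at 40.8% to 52.8%. For HoxB and HoxD the columns of the tissues did not overlap.

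Muscle was compared with myoblasts to ask which Hox genes mark each tissue. Differences are in log2(FPKM + 1), muscle minus myoblast, with limma over the 4 and 3 columns and a Benjamini-Hochberg adjusted p under 0.05 as the threshold. The 2 tissues were also prepared with different library kits, so tissue and kit cannot be told apart. Of 39 members, 26 had a mean of at least 1 FPKM and no column at 0, and 23 of these differed, 4 higher and 19 lower in muscle. Of all 12001 genes tested, 80.0% differed, 27.3% higher and 52.7% lower. The share of members called (88.5%) is thus near the background on this scale. Their median difference was -0.77, against -0.49 over all genes tested. Every HoxB member compared was lower in muscle (7 of 7) and both HoxD members compared were higher. Of HoxA, 8 of 10 were lower and 1 was higher. Of HoxC, 4 of 7 were lower and 1 was higher. Since most genes were lower in muscle on this scale, the comparison was repeated with the columns centred on their medians and with quantile normalization. Hoxa4, Hoxc11, Hoxd8 and Hoxd9 were called higher under all 3 scalings, and 10 members, among them Hoxa2, Hoxa3, Hoxb2, Hoxb3, Hoxb4, Hoxb9, Hoxc4, Hoxc6 and Hoxc8, were called lower under all 3. Median centring left 15 calls, 5 higher and 10 lower, and moved the share of higher calls over all genes from 34.1% to 51.2%. Over all genes it left 9305 calls in place of 9599. The members thus lost a larger part of their calls than all genes did, and their share called was then below the background.

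Promoter sequence is shown for examples on either side of this contrast. They are the HoxD pair, higher in muscle, and Hoxa2, taken from several lower members. The sequences are the 250 bases before the start site in RefSeq, on build GRCm38.p6, which is not the mm9 build named for the expression data, and 22 of the 39 members had an entry. Capitals mark a match to TGATTNAT, the kind of site known for HOX proteins bound with PBX cofactors, searched on both strands. Hoxd8 lies on the plus strand at chr2:74704365-74704614, Hoxd9 on the plus strand at chr2:74697513-74697762 and Hoxa2 on the minus strand at chr6:52164832-52165081.
Hoxd8: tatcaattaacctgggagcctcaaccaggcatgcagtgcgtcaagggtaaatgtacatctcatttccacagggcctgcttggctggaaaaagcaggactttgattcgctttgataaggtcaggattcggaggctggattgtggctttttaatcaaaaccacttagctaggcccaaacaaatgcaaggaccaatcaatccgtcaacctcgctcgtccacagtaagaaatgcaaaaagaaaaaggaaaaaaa
Hoxd9: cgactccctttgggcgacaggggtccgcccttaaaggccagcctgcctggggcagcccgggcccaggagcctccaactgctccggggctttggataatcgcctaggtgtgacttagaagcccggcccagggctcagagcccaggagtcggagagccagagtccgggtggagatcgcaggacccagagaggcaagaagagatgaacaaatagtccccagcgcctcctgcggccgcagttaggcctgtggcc
Hoxa2: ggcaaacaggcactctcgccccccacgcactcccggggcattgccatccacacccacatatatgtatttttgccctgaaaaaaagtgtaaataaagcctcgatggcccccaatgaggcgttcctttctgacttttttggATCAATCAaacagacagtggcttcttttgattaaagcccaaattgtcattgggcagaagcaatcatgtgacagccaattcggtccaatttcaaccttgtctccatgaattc
The Hoxa2 window holds 1 such match, on the reverse strand, and the HoxD windows hold none. Over all members, 2 of 24 windows held the motif, against 2.82% of 32851 RefSeq windows of the same length. The other match was in a window of Hoxd11, which was not tested between the tissues. The windows of Hoxa3, Hoxa5, Hoxa6, Hoxa9, Hoxa10, Hoxa11, Hoxb4 and Hoxc4, all called lower in muscle, held none. The motif thus did not set the lower members apart. TATAAA was in 4 of the 24 and in 12.4% of all windows. TTTATNG, a CDX-type motif, was in 2 of the 24 and in 9.81% of all windows. The Hoxd9 window has 13 CG pairs and the Hoxd8 and Hoxa2 windows 6 each, where the median window has 6. A match describes the letters only.

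Among the 4 genes higher in muscle, Hoxd8, a trunk-level gene, was at 4.04, 3.28, 1.58 and 2.03 FPKM in myoblasts and at 11.1, 6.83 and 8.94 FPKM in muscle. Its difference was 1.44 (SE 0.24, limma adjusted p = 0.000364). Its neighbour Hoxd9 was at 1.25, 1.16, 1.09 and 1.33 FPKM and at 4.38, 2.17 and 2.35 FPKM in muscle (0.81, SE 0.19, limma adjusted p = 0.00274). For both genes every muscle column was above every myoblast column. The anterior HoxD genes Hoxd3 and Hoxd4 did not reach the mean of 1 FPKM. Hoxd3 was at 0.171, 0.0271, 0.116 and 0.127 FPKM in myoblasts and at 1.93, 1.07 and 1.33 FPKM in muscle, again without overlap. Hoxd4 was at 0.0878 to 0.266 FPKM in myoblasts and at 0.658 to 1.42 FPKM in muscle.

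Hoxa4, known for patterning the neck vertebrae, was at 1.47, 1.74, 1.46 and 0.943 FPKM in myoblasts and at 4.93, 5.81 and 5.21 FPKM in muscle. It was higher in muscle by 1.40 (SE 0.15, limma adjusted p = 1.1e-05). It was the single HoxA member higher there, while its neighbours Hoxa3 and Hoxa5 were lower. Hoxa3, a pharyngeal-arch gene, was at 3.70, 4.80, 4.55 and 3.10 FPKM against 1.40, 1.65 and 0.983 FPKM. Hoxa5, which patterns the neck-to-thorax transition, was at 6.47, 6.65, 4.88 and 3.27 FPKM against 2.61, 4.14 and 2.94 FPKM. The columns of Hoxa3 did not overlap, and those of Hoxa5 did. Hoxc11, a gene of the lumbosacral level, was at 0.188, 0.342, 0.375 and 1.32 FPKM against 3.54, 2.82 and 2.84 FPKM in muscle (1.43, SE 0.22, limma adjusted p = 0.000187).

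Of the 19 members called lower in muscle, Hoxb9 had the largest difference. This thoracic gene was at 7.89, 9.89, 11.3 and 4.87 FPKM in myoblasts and at 0.215, 0.441 and 0.207 FPKM in muscle (-2.83, SE 0.23, limma adjusted p = 2.1e-06). Its lowest myoblast column stood more than 10 times above its highest muscle column. Hoxc8, also thoracic, was at 9.97, 15.2, 9.31 and 4.55 FPKM against 1.60, 2.08 and 1.54 FPKM (-1.88, SE 0.30, limma adjusted p = 0.000235). Hoxc6 was at 13.04, 14.8, 15.3 and 9.56 FPKM against 3.61, 3.47 and 3.06 FPKM (-1.68, SE 0.16, limma adjusted p = 7.0e-06). None of these 3 genes overlapped between the tissues.

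The anterior genes Hoxb2 and Hoxb3, best known from the hindbrain, were below 1 FPKM in every muscle column. Hoxb2 was at 4.75, 5.12, 4.55 and 2.96 FPKM against 0.240, 0.877 and 0.727 FPKM (-1.73, SE 0.20). Hoxb3 was at 3.70, 4.24, 2.91 and 2.43 FPKM against 0.499, 0.784 and 0.207 FPKM (-1.53, SE 0.19). Muscle was lower in every column for both, with limma adjusted p-values of 2.2e-05 and 3.9e-05. Hoxa2, which patterns the second pharyngeal arch and whose promoter window holds the HOX and PBX type match, was at 2.83, 4.20, 3.43 and 2.39 FPKM against 0.640, 1.09 and 1.24 FPKM (-1.08, SE 0.18, limma adjusted p = 0.000330).

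Further along, Hoxa10 was at 13.3, 10.3, 12.6 and 17.5 FPKM in myoblasts and at 6.59, 7.33 and 8.73 FPKM in muscle (-0.74, SE 0.17, limma adjusted p = 0.00300). Hoxa11, a gene of the middle limb segment, was at 2.59, 1.70, 1.79 and 3.56 FPKM against 0.812, 0.680 and 0.771 FPKM. Counting is not stated to use strand, so reads from Hoxa11 and its antisense transcript Hoxa11as cannot be told apart. Hoxa11as was listed at 0.357, 0.738, 0.503 and 0.894 FPKM in myoblasts and at 0.742, 1.48 and 1.02 FPKM in muscle.

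The remaining genes lower in muscle were mid-cluster members of HoxA, HoxB and HoxC, with differences from -1.15 for Hoxb4 to -0.52 for Hoxb6. Hoxb4, known for its part in blood stem cells, was at 2.23, 3.25, 2.71 and 2.22 FPKM in myoblasts and at 0.728, 0.851 and 0.322 FPKM in muscle. Hoxb7 was at 4.16, 6.01, 3.63 and 1.93 FPKM against 1.37, 0.800 and 1.84 FPKM, and its lowest myoblast column was close to its highest muscle column. Hoxc4 was at 2.30 to 4.25 FPKM in myoblasts and 1.01 to 1.53 FPKM in muscle, and Hoxc5 at 2.68 to 4.60 and 1.31 to 2.46 FPKM. Neither of these HoxC neighbours overlapped between the tissues. Hoxa6 was at 1.91 to 3.77 FPKM in myoblasts and 0.565 to 1.53 FPKM in muscle, and Hoxa9 at 2.69 to 3.33 and 1.54 to 1.65 FPKM. Hoxb5 was at 1.81 to 2.74 FPKM and 0.626 to 1.64 FPKM, and Hoxb6 at 1.51 to 3.53 FPKM and 1.40 to 2.06 FPKM. Of these last 4 genes, the columns of Hoxb6 overlapped and the others did not.

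The 5′ HoxD genes, known for shaping the limb from the forearm to the digits, were near or below 1 FPKM and were not tested. Hoxd10 was at 0.877, 0.506, 0.351 and 0.908 FPKM in myoblasts and at 1.32, 0.634 and 1.40 FPKM in muscle, with overlap. Hoxd11 was at 0.161 to 0.657 FPKM in myoblasts and at 0.618, 1.08 and 0 FPKM in muscle. Hoxd13 was at 0.708, 0.955, 0.717 and 1.58 FPKM in myoblasts and at 0.142, 0.117 and 0.0960 FPKM in muscle. It was thus the one HoxD gene that was lower in every muscle column than in every myoblast column.

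The members not called between tissues were Hoxa7 (-0.23, limma adjusted p = 0.391), Hoxc9 (0.11, limma adjusted p = 0.654) and Hoxc10 (-0.11, limma adjusted p = 0.680). The signs of Hoxa7 and Hoxc10 turned under median centring (0.28 and 0.40), and Hoxc9 was then called higher (0.62). Hoxc12 and Hoxc13 were left out because they were listed at 0 in muscle: Hoxc12 in all 3 columns and Hoxc13 in all but the wild type, at 0.0590 FPKM. Columns did not overlap for 21 of the 26 members, 4 higher and 17 lower in muscle, against 78.9% of all genes tested (26.9% higher and 52.0% lower). By an exact two-sided permutation test over the 7 columns of 1 gene at a time, the smallest possible p is 0.0286. Of the 23 members called by limma, 15 reached it, among them Hoxb9, Hoxc6, Hoxa4, Hoxd8 and Hoxd9. The other 8 did not: Hoxa10, Hoxb7, Hoxc4, Hoxc5, Hoxc8 and Hoxc11 gave 0.0571, Hoxb6 gave 0.0857 and Hoxa5 gave 0.114.

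**Figure D2:**
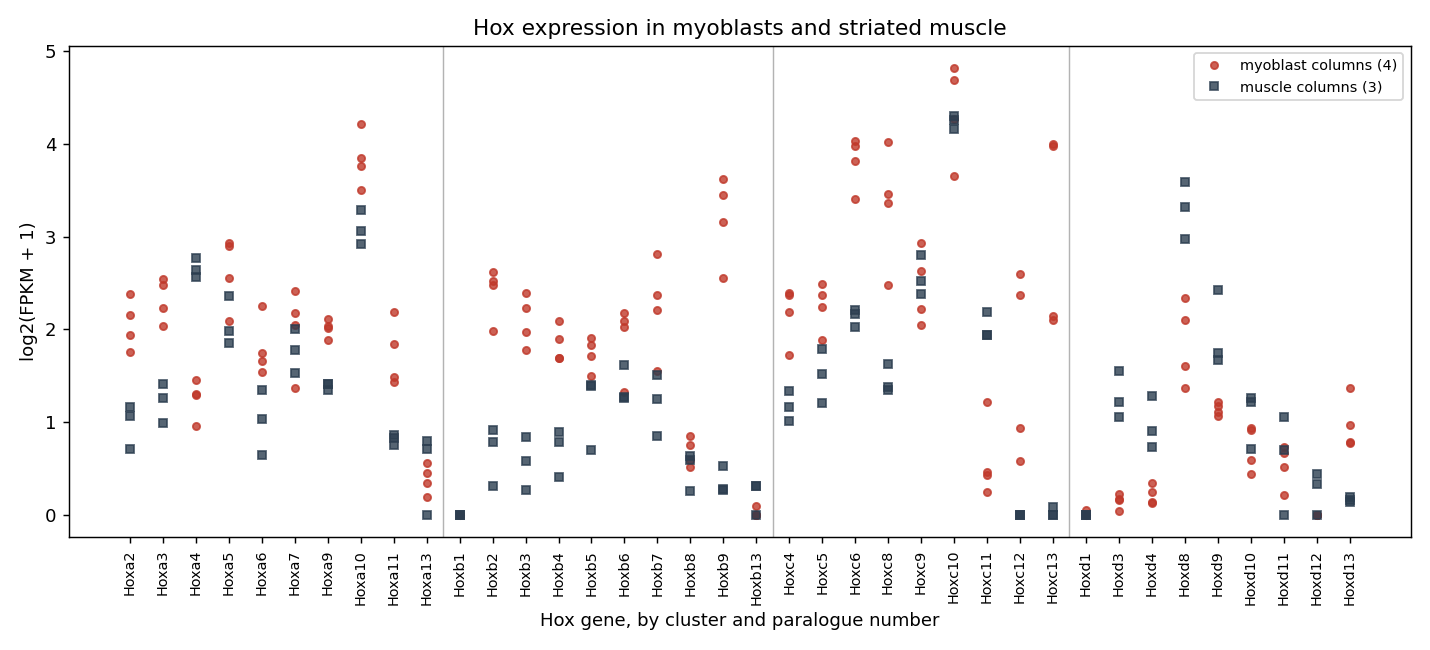
Levels of the Hox genes as log2(FPKM + 1), with 4 myoblast columns (red circles) and 3 muscle columns (dark squares) for each gene, by cluster and paralogue number. Muscle lies below myoblasts for most of HoxA and HoxB and above them for Hoxa4, Hoxc11, Hoxd3, Hoxd4, Hoxd8 and Hoxd9.

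Genes that act with the Hox proteins or on the clusters were also compared between the tissues, against the same background of 80.0%. Of 8 cofactors tested, which bind DNA together with Hox proteins, 6 were lower in muscle and none higher, with a median of -1.29. The differences were -2.92 for Pbx3 and -2.64 for Meis2. Of 29 Polycomb genes, 18 were lower and 8 higher. Ezh2, the H3K27 methyltransferase of dividing cells, was lower (-2.18), and its relative Ezh1 was higher by 1.26. Of 15 Trithorax genes 11 were lower and 1 was higher, Mll3 by 1.44. Of 10 CTCF and cohesin genes, which shape chromatin loops, 8 were lower and 1 was higher. In retinoic acid signalling, which is known to switch on anterior Hox genes, 9 of 14 tested were lower and 1 was higher (Aldh1a1 by 1.95). The receptor gene Rxrg was not tested because of its zeros. It was at 0.0611, 0, 0 and 0.140 FPKM in myoblasts and at 25.8, 10.5 and 18.0 FPKM in muscle. Of 21 limb and axial position genes 13 were lower, led by Prrx2 at -3.08, and 4 were higher, among them Tbx2 at 1.56. Of 11 homeobox genes related to Hox, such as Cdx and Evx, only Gbx2 reached 1 FPKM in any column (1.90 to 3.67 FPKM in myoblasts). Of 17 non-coding RNAs of the clusters 7 were in the table, and the 6 microRNA genes were listed at 0 throughout.

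Markers of other cell types moved with tissue as well. The summed FPKM of the 2 endothelial markers was 3.62 to 6.00 in myoblasts and 129 to 145 in muscle. The 4 nerve markers summed to 145 to 301 and 450 to 946 FPKM, the 4 fibroblast markers to 1068 to 1182 and 769 to 839 FPKM, and the 4 macrophage markers to 24.4 to 94.7 and 29.8 to 39.1 FPKM. The 4 cardiac markers summed to 0.612 to 1.30 and 11.3 to 24.8 FPKM, and the 4 bone markers to 2.07 to 9.73 and 3.69 to 75.0 FPKM. The 5 myoblast markers summed to 21.7 to 92.5 and 763 to 939 FPKM, and the 5 fibre markers to 33.3 to 123 and 40521 to 49971 FPKM. Their part in the Hox differences was not tested.

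The wild-type myoblasts of the litters differed in their Hox pattern, which bears on the myoblast knockout comparisons because each knockout there has its own-litter control. They are 1 sample each, so no test was made, and a difference of at least 2-fold in log2(FPKM + 1) was used as the rule. Of 27 members with a mean of at least 1 FPKM over the myoblast columns and no 0 in either, 6 passed, or 22.2%, where 2.71% of all 11504 genes did. Hoxa7, Hoxb7 and Hoxc8 were higher in the Lbr-litter wild type (0.687% of all genes), by 1.05, 1.26 and 1.55. Hoxc10, Hoxc12 and Hoxc13 were lower there (2.03% of all genes), at -1.03, -2.02 and -1.83. Hoxc10 came to -0.99 when the columns were centred on their medians.

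Between the wild types the direction went with the position in the cluster for paralogues 4 to 8 and 10 to 13. Of all 11504 genes compared, 42.5% were higher in the Lbr-litter wild type. Those genes passed the filter at 1 FPKM, while the members counted here include some that did not. Of the 8 members of paralogues 1 to 3, 4 were higher in the Lbr-litter wild type, 3 in the Lmna-litter wild type and 1 was equal. All 15 members of paralogues 4 to 8 had a higher FPKM in the Lbr-litter wild type. Among them Hoxb8 and Hoxd4 were below 1 FPKM in both wild types, and Hoxb5 differed little (2.74 against 2.56 FPKM). At paralogue 9 the members were split, with Hoxa9 and Hoxb9 higher in the Lbr-litter wild type and Hoxc9 and Hoxd9 in the other. Of the 12 members of paralogues 10 to 13, 9 were higher in the Lmna-litter wild type, 1 was higher in the Lbr-litter wild type and 2 were equal. Some of these, such as Hoxd10 and Hoxd11, were below 1 FPKM in both wild types. Hoxc8 was at 15.2 FPKM in the Lbr-litter wild type and 4.55 in the other, Hoxb7 at 6.01 and 1.93, and Hoxa7 at 4.31 and 1.57. The ratio of summed FPKM of paralogues 10 to 13 over paralogues 1 to 9 was 0.273 in the Lbr-litter wild type and 1.07 in the Lmna-litter wild type. The Lbr and Lmna knockouts lay between them at 0.430 and 0.617, and muscle was at 0.557, 0.636 and 0.720. The knockout columns showed no such split. Of paralogues 4 to 8, 9 members were higher in the Lbr knockout and 6 in the Lmna knockout, and of paralogues 10 to 13, 5 were higher in the Lbr knockout, 6 in the Lmna knockout and 1 was equal.

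**Figure D3:**
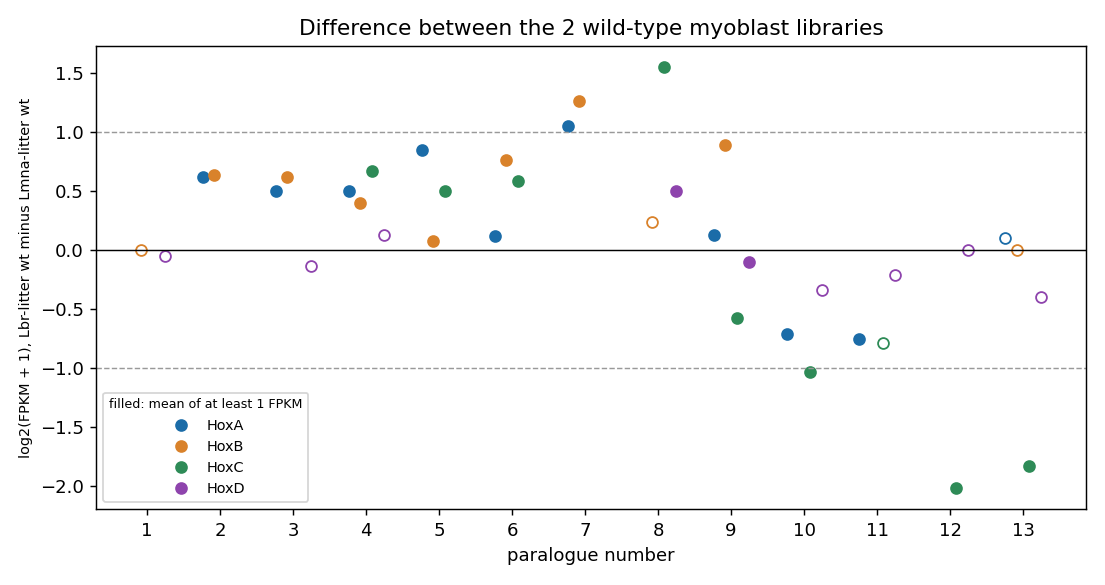
Difference in log2(FPKM + 1) between the wild-type myoblasts, Lbr litter minus Lmna litter, for Hox genes against their paralogue number. Filled points have a myoblast mean of at least 1 FPKM, open points less, and dashed lines mark 2-fold. All 15 points of paralogues 4 to 8 are above 0, and Hoxc10, Hoxc12 and Hoxc13 are below the lower line.

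At Hoxc13 and Hoxc12, at the 5′ end of HoxC, the knockout columns stood with their own litters. Hoxc13, known for its part in hair and nail formation, was at 3.27 and 3.42 FPKM in the Lbr-litter columns and at 15.0 and 14.8 FPKM in the Lmna-litter columns, knockout first. Its mean was 4.44 times higher in the Lmna litter. Hoxc12, its neighbour, was at 0.916 and 0.494 FPKM against 4.16 and 5.06 FPKM. For both genes the litters were far apart. The columns within a litter were close together for Hoxc13, while the Lbr-litter columns of Hoxc12 were both below 1 FPKM. The neighbours Hoxc11, Hoxc10 and Hoxc9 were also lower in both Lbr-litter columns, but by less. Their means were 3.20, 1.74 and 1.74 times higher in the Lmna litter, against 6.54 times for Hoxc12. Hoxc11 was at 0.188 and 0.342 FPKM against 0.375 and 1.32 FPKM, with the Lmna knockout next to the Lbr-litter wild type. Hoxc10 was at 18.3 and 11.6 FPKM against 27.1 and 24.7 FPKM, with the Lbr knockout about midway between the wild types. Hoxc9, a thoracic gene, was at 3.66 and 3.14 FPKM against 6.62 and 5.20 FPKM. Hoxd8 was higher in the Lbr litter, at 4.04 and 3.28 FPKM against 1.58 and 2.03 FPKM.

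**Figure D4:**
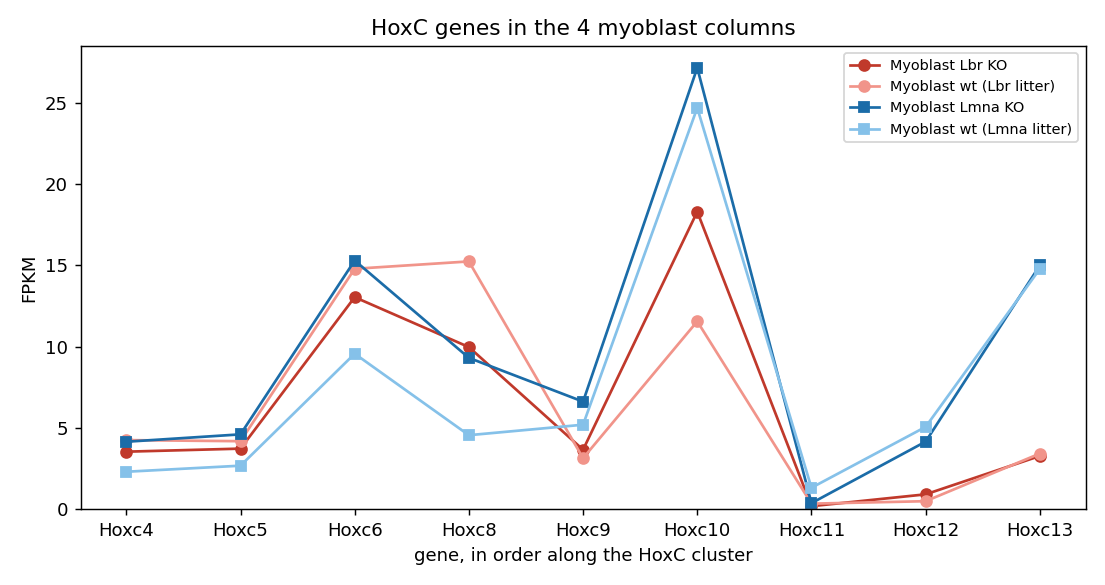
FPKM of the 9 HoxC genes in order along the cluster, in the Lbr-litter (red) and Lmna-litter (blue) myoblast columns, with the knockout dark and the wild type light. At Hoxc13 the red lines meet at 3.27 and 3.42 FPKM and the blue lines at 15.0 and 14.8 FPKM.

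A limma fit of the 2 Lbr-litter columns against the 2 Lmna-litter columns was added after these values had been seen, and it is therefore not independent of them. It called 4 of 27 members (14.8%), where 17.3% of 11447 genes were called (9.54% higher and 7.75% lower in the Lbr litter). Lbr minus Lmna litter, the differences were -1.87 for Hoxc13 (SE 0.09) and -1.72 for Hoxc12 (SE 0.18), both with a limma adjusted p of 0.0240. They were -0.65 for Hoxc9 (SE 0.15, limma adjusted p = 0.0482) and 0.73 for Hoxd8 (SE 0.16, limma adjusted p = 0.0435). Columns did not overlap between the litters for 14 of the 27 members, 9 higher and 5 lower in the Lbr litter, against 68.7% of all genes (29.4% higher and 39.3% lower). The calls rested on 2 residual degrees of freedom, and leaving out the Lbr-litter wild type or either Lmna-litter column left 0 members called. The litters also carried different knocked-out genes, so litter, genotype of the parents and anything handled litter by litter cannot be told apart.

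Other genes were set beside the litters. Pitx1, which specifies the hindlimb, was at 1.26, 0.712, 1.85 and 2.93 FPKM in the 4 myoblast columns, and the Lbr-litter minus Lmna-litter wild type difference was -1.20. Over both columns of each litter it was -0.77 and not called (limma adjusted p = 0.0822). Tbx5, the forelimb counterpart, was at 1.64, 3.22, 1.24 and 1.70 FPKM, and the litters overlapped. In the added fit 8 of 10 CTCF and cohesin genes were higher in the Lbr litter, Nipbl by 1.06 and Smc3 by 1.04. The limb mesenchyme gene Prrx1 was higher by 0.70, and its relative Prrx2 was lower (-0.79). The macrophage markers did not follow the litters, and the added fit called none of the 4. All 4 were lowest in the Lbr-litter wild type, with a sum of 24.4 FPKM against 77.8 to 94.7 FPKM in the other 3 columns. Of the 4 fibroblast markers the added fit called 2 higher in the Lbr litter, while their sum was 1068 to 1182 FPKM in all 4 columns. The part of these genes and cells in the Hox difference was not tested.

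Loss of Lbr or Lmna was compared with the own-litter wild type to ask whether the Hox clusters need these envelope proteins. With 1 column per group there is no test of a single comparison, and the 2-fold rule was used. In Lbr-knockout myoblasts 0 of 27 members passed, where 2.60% of 11463 genes did (2.48% higher and 0.122% lower). The largest values were 0.62 for Hoxc10 and -0.57 for Hoxc8. The members' median was -0.09, against 0.05 over all genes. Of the members 10 of 27 were above 0, and of all genes 60.9%. All 4 macrophage markers were at least 2-fold higher in this knockout than in its wild type (91.9 against 24.4 FPKM in sum), as were 3 of 3 fibre markers that could be compared. Their part was not tested.

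In Lmna-knockout myoblasts 1 of 27 members passed, Hoxb9, where 1.20% of 11462 genes did (0.602% in each direction). Hoxb9 reached 11.3 FPKM there against 4.87 FPKM for its wild type, a difference of 1.07. The other wild type was at 9.89 FPKM and the Lbr knockout at 7.89 FPKM, so that the Lmna knockout was the highest and its own wild type the lowest of the 4 columns. Next were Hoxc8 at 0.89 (9.31 against 4.55 FPKM) and Hoxa7 at 0.68 (3.13 against 1.57 FPKM). The members' median was 0.32, against 0.04 over all genes. Of the members 21 of 27 were above 0, and of all genes 58.1%. The 5 fibre markers summed to 33.3 FPKM in this knockout against 81.0 FPKM in its wild type. These sums include Tnnt3, which was listed at 0 in the knockout and at 20.8 FPKM in the wild type. The 5 myoblast markers summed to 21.7 against 39.7 FPKM and the 4 macrophage markers to 77.8 against 94.7 FPKM. Their part was not tested. Set against the wild type of the Lbr litter, the median became -0.05 with 12 of 27 above 0. The share of all genes above 0 was not computed for this setting. At this setting the call of Hoxb9 was lost, and Hoxc10, Hoxc12 and Hoxc13 passed. Against the own-litter wild type these genes differed by 0.13, -0.23 and 0.02, and they are the ones lower in the Lbr-litter wild type above. With both wild types as 1 group in limma, Hoxb9 differed by 0.62 (SE 0.35, adjusted p = 1.00), and no member was called in either knockout. In that fit Hoxc13 differed by -0.97 in the Lbr and by 0.94 in the Lmna knockout. Against the own-litter wild types it differed by -0.05 and 0.02. The wild types pooled in the fit lay more than 2-fold apart at Hoxc13, so its values there hold the gap between the litters.

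In muscle, no Hox gene passed 2-fold in either knockout. In the Lbr knockout 0 of 21 passed, where 1.56% of 12080 genes did (1.30% higher and 0.265% lower), and the values ran from -0.36 for Hoxa10 to 0.70 for Hoxb5. Hoxb5 was at 1.64 FPKM against 0.626 FPKM in wild type, a gap of few fragments at this depth. Hoxd9 followed at 0.68 (4.38 against 2.35 FPKM). The members' median was 0.18, against 0.10 over all genes. In the Lmna knockout 0 of 21 passed, where 2.69% of 12068 genes did (1.93% higher and 0.762% lower), and the values ran from -0.66 for Hoxb7 to 0.69 for Hoxa6 and for Hoxb5. The members' median was 0.00, against 0.13 over all genes. Both knockouts were set against the same wild-type column, so their values are not independent of each other. Nerve markers summed to 946 and 582 FPKM in the Lbr and Lmna knockouts against 450 FPKM in wild type, and bone markers to 3.69 and 75.0 FPKM against 36.5 FPKM. Their part was not tested.

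**Figure D5:**
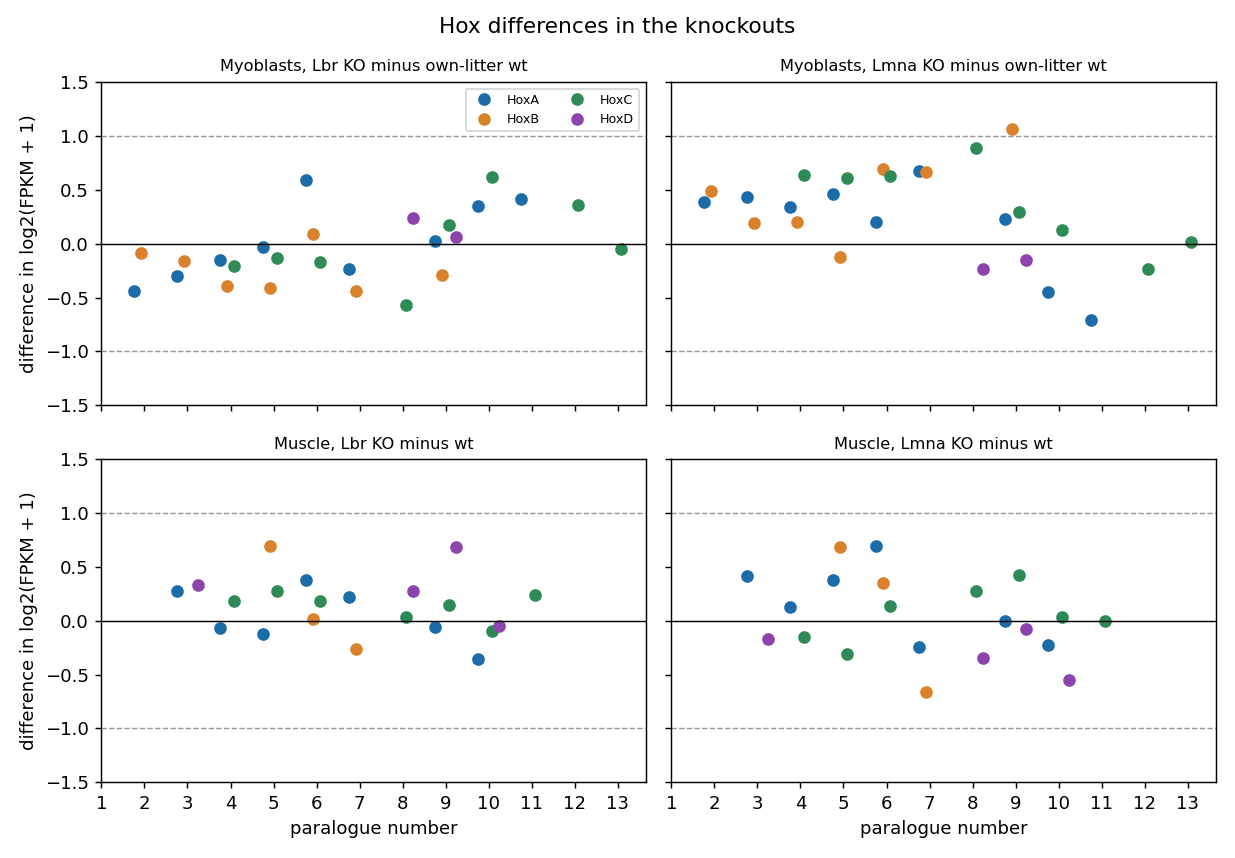
Difference in log2(FPKM + 1), knockout minus wild type, for the Hox genes compared, against their paralogue number, with clusters by colour and dashed lines at 2-fold. Hoxb9 at 1.07 in the Lmna-knockout myoblasts is the single point beyond a line.

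Over both tissues together, a limma fit with tissue and genotype terms called no Hox gene. For Lbr 0 of 26 members were called and 0% of 12001 genes. For Lmna 0 of 26 were called and 0.00833% of genes. For Lbr minus Lmna 0 were called and 0% of genes. At an unadjusted limma p under 0.05 there was 1 of the 26 members in each. The share of all genes at that cut was not computed, so these members are not set apart from the background. Hoxa6, a thoracic gene, was higher in the Lbr knockout by 0.50 (limma adjusted p = 1.00). Hoxc9 was higher in the Lmna knockout by 0.50 (limma adjusted p = 0.965). Hoxd8 was higher in Lbr than in Lmna knockouts by 0.79 (SE 0.22, limma adjusted p = 0.992). For Hoxd8 the knockout values were 4.04 and 1.58 FPKM in myoblasts and 11.1 and 6.83 FPKM in muscle. With 3 residual degrees of freedom these fits could not resolve small shifts, and the absence of calls does not show that the genes are equal. Whether a knockout acts differently in the tissues was not tested.

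The other lists were read by the 2-fold rule as well, against the shares of all genes given above for each knockout (1.20% to 2.69%). No cofactor, Polycomb, Trithorax, or CTCF and cohesin gene that was compared passed 2-fold in any of the 4 knockout comparisons. At such shares this differs little from the background. The Polycomb gene Phc2 was left out in Lmna-knockout myoblasts because it was listed at 0 there, against 32.3 FPKM in the own-litter wild type. In that column 6 genes were listed at 0 while at 10 FPKM or more in every other myoblast column. Whether such zeros reflect expression was not tested. In retinoic acid signalling 3 of 13 genes passed in Lbr-knockout myoblasts, where 2.60% of all genes did. The synthesis enzyme Aldh1a2 was higher by 2.51, Dhrs3 was higher by 1.02, and Aldh1a3, another synthesis enzyme, was lower (-1.23). In Lbr-knockout muscle the binding protein Crabp1 was lower (-1.05), and in Lmna-knockout muscle the synthesis enzyme Aldh1a1 was higher by 1.30. Of the limb and axial genes only Meox1, a somite gene, passed, at -1.12 in Lmna-knockout myoblasts.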

How the data were processed

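Total RNA was extracted with TRIZOL and cleaned on columns. The myoblast libraries were made with the NuGEN Ovation RNA-Seq kit and the muscle libraries with the NuGEN complete RNA-Seq kit, per the labels' protocols. The deposited values are FPKM, calculated by the authors, with 1 column per group and no counts. The submitters' processing notes name build mm9. Not given in the sources used here were the annotation, the aligner, the tool behind the FPKM and how 2 samples became 1 column, so total depth is unknown. All 7 columns matched the labels.

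Values were taken as log2(FPKM + 1), with a pseudocount of 1, which understates changes of low genes. Genes with a mean under 1 FPKM over the columns of the tissues compared, or listed at 0 in a compared column, were left out. Fits used limma 3.58.1 in R 4.3.3 with a trended variance prior over all genes, Benjamini-Hochberg adjustment and a threshold of 0.05. Pooled and single-sample columns weigh equally, and the p-values measure only the spread between columns. Knockouts had no replicate columns, so the 2-fold rule replaced the test planned per sample. The fits were tested on simulated data. Every member at 1 FPKM or more in any column could be named, with up to 4 genes of each other list, chosen by size of change. Tbx4, Tbx5, Phc2, Rxrg and Tnnt3 were named outside that rule after their values were seen. Values of some genes, which enter the counts and medians, are not reported here, and none of them is drawn in a figure. Alternatives were pseudocounts of 0.1 and 5, other filters, 2 other scalings, the other wild type, other variance priors and leaving out a column. Members and lists were chosen with earlier results of these data known.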

Additional observations from a re-analysis of the deposited data

How the results depend on the processing

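Each main count of called Hox genes was set against its alternatives. In muscle against myoblasts (23) it was 4 with a filter at 5 FPKM, 15 with median centring, and 20 to 24 leaving out 1 column. In the wild-type litters (6) it was 10 with a pseudocount of 0.1, 2 with 5, and 3 with a filter at 5 FPKM. In the added litter fit (4) it was 2 with no filter, 1 with a filter at 5 FPKM, and 0 to 3 leaving out 1 column, where all genes gave 0 to 715 calls in place of 1979. In Lmna-knockout myoblasts (1) it was 2 with a pseudocount of 0.1, 0 with 5, 3 against the other wild type, and 0 against the mean of both wild types or both in limma. In Lbr-knockout myoblasts (0) it was 2 against the other wild type. With a pseudocount of 0.1 it was 1 in Lbr-knockout muscle (0), which was Hoxb5, and 4 in Lmna-knockout muscle (0). Over all genes, pseudocounts of 0.1 and 5 gave 486 and 86 calls in place of 298 in Lbr-knockout myoblasts, 223 and 32 in place of 138 in Lmna-knockout myoblasts, 457 and 48 in place of 189 in Lbr-knockout muscle, 725 and 98 in place of 325 in Lmna-knockout muscle, and 620 and 93 in place of 312 in the wild-type litters. The filter at 5 FPKM gave 132, 60, 67, 187 and 197 in the same order. Both wild types in limma gave 37 and 47 in the Lbr- and Lmna-knockout myoblasts, the other wild type gave 518 for Lmna, and their mean gave 152 for Lbr. The added litter fit gave 1075 with no filter and 1277 without the variance trend. Muscle against myoblasts gave 9305 with median centring in place of 9599. Fewer genes tested bear on the filter at 5 FPKM; for the other settings the cause was not tested. Over both tissues the knockouts gave 0 under every alternative run, and no called difference changed sign under any of them. No paired analysis was possible because each group has 1 column, so the replicate block and leaving out single samples were not run. Depth limits muscle most, where low genes rest on few fragments.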
